A study of Sus scrofa with 4 samples.

Results

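miR-423, miR-320, miR-484, miR-328, miR-1249 and miR-1306 were followed in exosomes from umbilical cord blood of newborn Yorkshire piglets. Every row of the deposited miRNA tables that carries 1 of these 6 numbers, on either arm, was taken. This gave 14 of 581 rows, beside 83 rows of predicted candidates, and the 14 rows fall under 9 of 455 mature names. The 9 names are miR-423-5p, miR-423-3p, miR-320, miR-320b, miR-484, miR-328, miR-1249, miR-1306-5p and miR-1306-3p. The miRNAs had been picked with their low values in growth-restricted libraries already known, so their differences between growth-restricted and normal piglets are described without a test.

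There were 4 small RNA libraries, from normal vein, normal artery, IUGR vein and IUGR artery, and values below keep that order. IUGR is intrauterine growth restriction, and the normal piglets were littermates. Each library came from a pool of 3 piglets, with a single library for each vessel and condition, from blood drawn at birth into EDTA. The umbilical vein brings placental blood to the fetus, and the artery carries fetal blood back. The sample labels name only the vessel, so the condition was taken from the column names of the tables, where N stands for normal and I for IUGR.

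miRNAs are usually cut from a hairpin, first by Drosha with DGCR8 in the nucleus and then by Dicer in the cytoplasm, and the mature strand guides repression through its seed. In mouse, the hairpins of miR-320 and miR-484 begin at a transcription start and bypass Drosha, and miR-1306 lies in the transcript of DGCR8, which the Drosha complex itself cuts. miR-423 gives stable mature strands from both arms of its hairpin, and miR-423-5p circulates in human plasma. In the RefSeq annotation of pig assembly Sscrofa 11.1, MIR423 lies inside NSRP1, MIR328 inside ELMO3, MIR1249-1 inside KIAA0930 and MIR1306 inside DGCR8, while MIR320 overlaps part of POLR3D.

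The sequences below, copied from the deposited tables in DNA letters, show what these miRNAs share and where they differ. Capitals mark the seed, bases 2 to 8.
miR-423-5p: tGAGGGGCagagagcgagacttt
miR-423-3p: aGCTCGGTctgaggcccctcagt
miR-484, 22 bases: tCAGGCTCagtcccctcccgat
miR-484, 21 bases: tCAGGCTCagtcccctcccga
miR-320: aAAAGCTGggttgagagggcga
miR-320b: aAAAGCTGggttgagagggca
miR-1306-5p: cCACCTCCcctgcaaacgtcc
miR-1306-3p: tGGACGTTggctctggtggtga
miR-328: cTGGCCCTctctgcccttccgt
miR-1249: aCGCCCTTcccccccttcttca
miR-320 and miR-320b shared their seed and their first 20 bases. No other pair of names shared a seed, and no row outside the set carried the seed of any of the 9 names.

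GC content, the percentage of bases that are G or C, is high in these sequences and recurs in the results. Over the 14 rows it had a median of 65.1% and ran from 52.4%, in miR-320b, to 70% in a miR-484 row of 20 bases, while the 581 rows had a median of 50%. At least 60% was reached by 10 of the 14 rows and by 128 of the 581. miR-1306-3p at 59.1%, miR-423-5p at 56.5%, miR-320 at 54.5% and miR-320b at 52.4% stayed under that mark, and all 14 rows lay above the median of the table.

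The levels rest on few reads. Outside predicted-candidate rows the libraries held between 7175 reads, in IUGR vein, and 35317, in normal vein, and levels are given as a share of these reads. Predicted-candidate rows took from 13.2% of all reads in normal vein to 55.8% in IUGR vein. The IUGR artery library stood apart, with 12.3% of its reads in a list of red cell miRNAs and 32.8% in a list of liver miRNAs, where the other libraries held at least 53.8% and at most 2.65%. All intervals are exact 95% binomial intervals on reads rounded to whole numbers. They cover counting error only, since amplified reads without molecular identifiers are not independent molecules. Fewer vesicles from a cell type and less of a miRNA in each vesicle cannot be told apart here.

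Together the 9 names took 4.61% of reads in normal vein (1629.5 reads, interval 4.40 to 4.84%) and 2.34% in normal artery (176.5 reads, 2.02 to 2.72%). They took 1.72% in IUGR vein (123.5 reads, 1.44 to 2.06%) and 0.101% in IUGR artery (12.5 reads, 0.0562 to 0.180%). Normal vein was highest and IUGR artery lowest, and only the intervals of normal artery and IUGR vein overlapped, between 2.02 and 2.06%.

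miR-423-3p, which promotes proliferation in human liver cancer cells, was the most abundant member in normal vein, where it ranked 7 among all names. It had 610, 44, 40 and 3 reads in normal vein, normal artery, IUGR vein and IUGR artery, or 1.73, 0.585, 0.558 and 0.0243% of reads. miR-423-5p, from the other arm of the hairpin, had 373, 48, 41 and 5 reads, or 1.06, 0.638, 0.571 and 0.0406%. Both arms were highest in normal vein and lowest in IUGR artery, and for both the intervals of normal artery and IUGR vein overlapped.

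miR-484, which represses the mitochondrial fission factor FIS1 in mouse, had 367.5, 44.5, 21.5 and 2.5 reads, since some raw values in the tables are fractions of a read. These are 1.04, 0.591, 0.300 and 0.0203% of reads, and the intervals of normal artery (0.436 to 0.799%) and IUGR vein (0.192 to 0.464%) overlapped. miR-320, also made from a capped hairpin in mouse, had 111, 16, 15 and 1 reads, or 0.314, 0.213, 0.209 and 0.00811%. For miR-320 only IUGR artery, with an interval up to 0.0452%, stood below the other 3 libraries, whose intervals overlapped.

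miR-1306-5p had 105, 12, 3 and 0 reads, or 0.297% in normal vein, 0.159% in normal artery and 0.0418% in IUGR vein. A count of 0 in IUGR artery allows up to 0.0243%, the worth of 3 reads, or 0.0299% by the exact interval. miR-328, which represses the drug transporter ABCG2 in human cells, had 27, 3, 1 and 0 reads, and miR-1249 had 29, 7, 1 and 0. These 3 miRNAs had no read in IUGR artery and at most 3 in IUGR vein. miR-1306-3p had 6 reads in normal vein, 2 in normal artery and none in either IUGR library, and miR-320b had at most 1 read in any library, too few to compare.

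**Figure D1:**
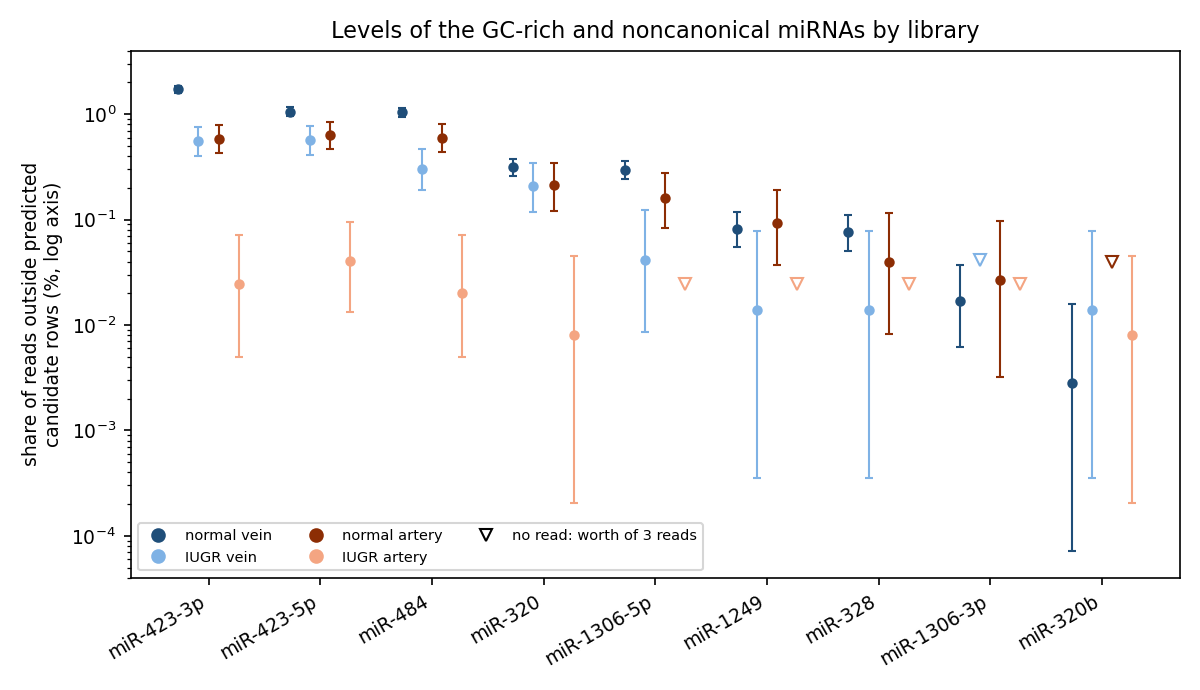
Share of reads outside predicted-candidate rows (%, log axis) for each of the 9 names in the 4 libraries, 1 library per point. Bars are exact 95% binomial intervals, open triangles stand at the worth of 3 reads where a library had none, and IUGR artery is lowest for every name with at least 10 reads in normal artery.

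Within a library, the proportions of the members to each other do not depend on how libraries are scaled. The 5p arm made up 37.9% of miR-423 reads in normal vein (373 of 983, interval 34.9 to 41.1%) and 52.2% in normal artery (48 of 92, 41.5 to 62.7%). It made up 50.6% in IUGR vein (41 of 81, 39.3 to 61.9%) and 62.5% in IUGR artery (5 of 8, 24.5 to 91.5%). The 3p arm thus led in normal vein, where the interval lay wholly below that of normal artery, while the intervals of the other 3 libraries included an even split. Of all member reads, miR-423-3p took 37.4% in normal vein (35.1 to 39.8%) and 24.9% in normal artery (18.7 to 31.9%). miR-484 took between 17.7% and 25.4% in the 4 libraries, with overlapping intervals.

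**Figure D2:**
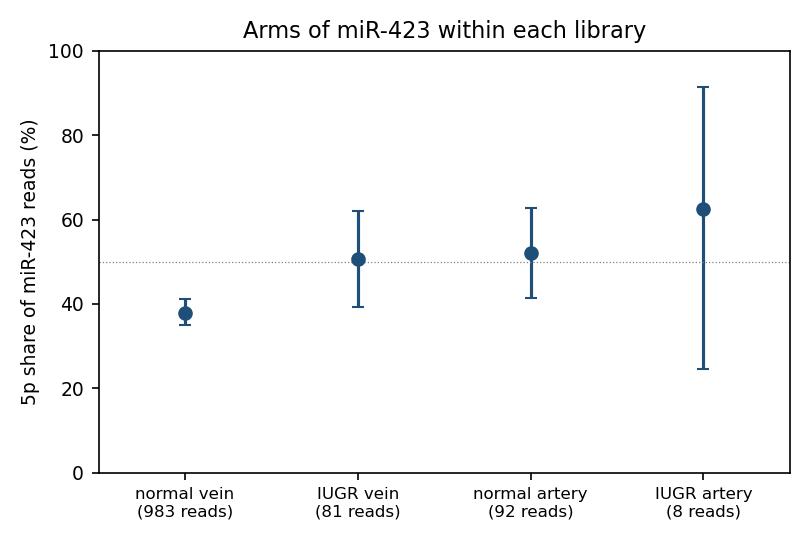
Share of miR-423 reads that came from the 5p arm (%) in each library, with exact 95% binomial intervals and the number of miR-423 reads. Normal vein stands at 37.9%, below an even split, and the intervals of the other 3 libraries include it.

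The first comparison sets IUGR against normal piglets in the vein. Each member with at least 10 reads over both vein libraries had a lower share in the IUGR library, by 1.5-fold for miR-320 to 7.11-fold for miR-1306-5p. miR-484 was 3.47-fold lower (interval 2.21 to 5.49), miR-423-3p 3.10-fold (2.25 to 4.38) and miR-423-5p 1.85-fold (1.34 to 2.62). For miR-320 the interval of 0.873 to 2.78 includes no difference. miR-1306-5p was lower on 3 reads against 105, with an interval of 2.37 to 35.0. On a single IUGR read each, the fold was 5.89 for miR-1249 and 5.49 for miR-328, with lower limits of 0.977 and 0.904.

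At least 2-fold lower, on shares plus 0.01 percentage points, were 5 of 7 members, and none was higher, while over all 148 names with at least 10 reads 24.3% were lower and 20.9% higher. miR-1306-5p, miR-328 and miR-1249 reached the minimum of reads only through the normal library. The members had a median log2 ratio of -1.76 and all names one of -0.02, and since the members were picked from this contrast nothing is read from the gap. Among all names 36 were lower and 31 higher. With predicted candidates kept in the denominator these became 66 and 9, the median of all names became -0.83, and the count of members became 7 of 7.

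In the artery, miR-484 was 29.2-fold lower in the IUGR than in the normal library (interval 7.89 to 124), and miR-320, on 1 read against 16, 26.2-fold lower (4.07 to 1099). miR-423-3p was 24-fold lower (7.70 to 121) and miR-423-5p 15.7-fold lower (6.29 to 50.6). Against 3 counts in IUGR artery, miR-1306-5p was at least 6.55-fold lower on 12 reads in normal artery, and miR-1249 at least 3.82-fold on 7. That bound takes the normal reads as exact, and with their counting error the lower limits were 4.55-fold and 2.36-fold. miR-328, with 3 reads against none, allows no bound. The 5 members with at least 10 reads over both artery libraries were all at least 2-fold lower, where 37.9% of 124 names were lower and 39.5% higher. They reached the minimum only through the normal library, since IUGR artery held at most 5 reads of each. Their median log2 ratio was -4.08, and that of all names 0.37.

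The ratios in vein and in artery share no library. For miR-423-3p the log2 ratio of IUGR to normal was -1.63 in vein (-2.13 to -1.17) and -4.59 in artery (-6.92 to -2.94). For miR-423-5p it was -0.89 (-1.39 to -0.42) and -3.97 (-5.66 to -2.65), and for miR-484 -1.80 (-2.46 to -1.14) and -4.87 (-6.95 to -2.98). For miR-320 it was -0.59 (-1.47 to 0.20) and -4.71 (-10.10 to -2.03). Of 5 members with at least 10 reads in both vessels, these 4 had an artery interval wholly below the vein interval, as did 34.7% of all names with that many reads, so the table at large differed between vessels in this way. That holds for these libraries only, and with 1 library for each vessel and condition a difference between vessels in the ratio was not tested across replicates.

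**Figure D3:**
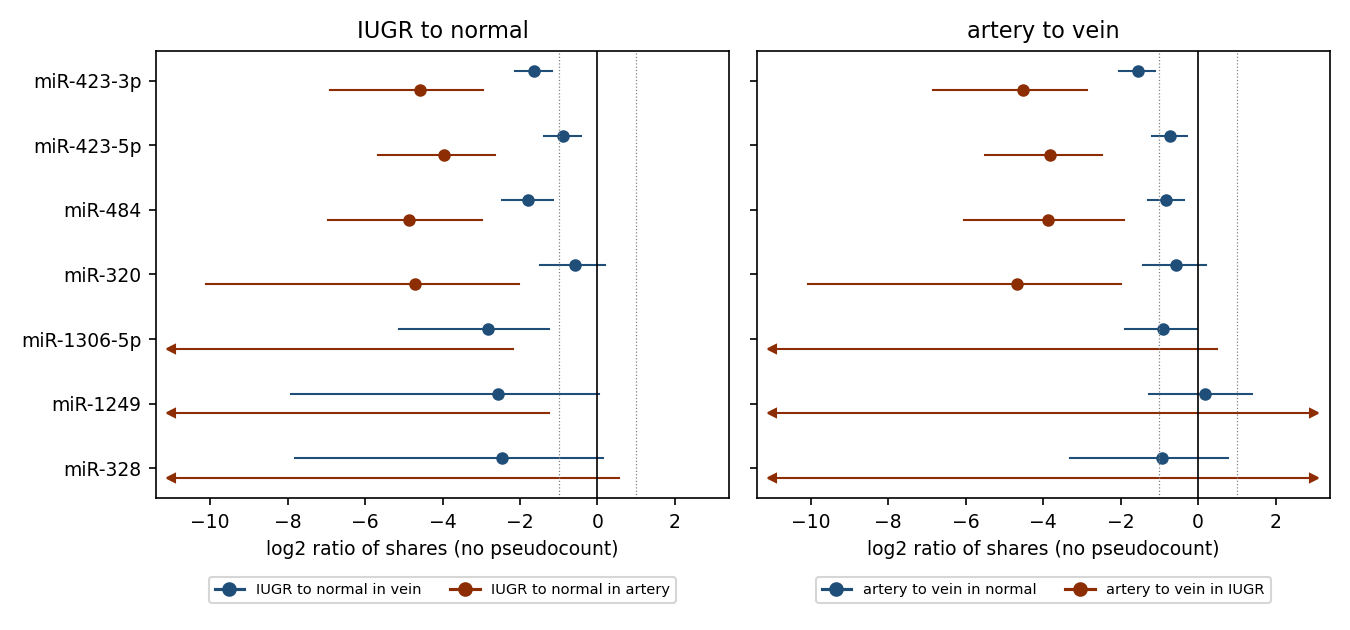
Log2 ratio of shares for the 7 names with at least 10 reads over the vein libraries, IUGR to normal on the left and artery to vein on the right, with exact 95% counting intervals (arrowheads run past the axis, a line without a point has no read in 1 library, dotted lines mark 2-fold). Both panels use the same 4 libraries, and the artery ratios of IUGR to normal lie below the vein ratios for miR-423-3p, miR-423-5p, miR-484 and miR-320.

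Vein and artery have 2 libraries each, 1 normal and 1 IUGR, so the spread within a vessel includes any difference between conditions. All 8 member rows with at least 20 reads had lower values in artery, with log2 differences from -0.67 for miR-1249 to -2.38 for miR-423-3p, and none passed the test. By edgeR's quasi-likelihood test, miR-423-3p had a standard error of 1.53 and an adjusted p of 0.549, and the other 7 rows had adjusted p-values of 0.728 to 0.914. None of the 163 rows tested (0%) was called at an adjusted p of 0.05, and 23 rows, none of them a member, had an unadjusted p below 0.05. DESeq2 called 2 rows, of miR-194a and miR-194b, which have equal counts in every library and are named after their values were seen. Without normal artery, which leaves IUGR artery alone against both vein libraries and assumes that it varies as they do, 53 of 152 rows (34.9%) were called. Among these were 6 of 8 member rows, with log2 differences from -4.28 for miR-423-5p to -8.10 for miR-1306-5p. The members were picked with their low values in IUGR artery known, so nothing is read from these 6 calls.

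Within a condition the same 4 libraries give the ratio of artery to vein. In normal piglets miR-423-3p was 2.95-fold lower in artery (2.17 to 4.11), miR-484 1.76-fold (1.28 to 2.43) and miR-423-5p 1.66-fold (1.22 to 2.29). In IUGR piglets miR-423-3p was 22.9-fold lower in artery (7.30 to 116), miR-484 14.8-fold (3.79 to 65.8) and miR-423-5p 14.1-fold (5.57 to 45.7). miR-1249 had a log2 ratio of 0.18 in normal piglets (-1.26 to 1.40), which was below 0 with all reads as denominator, the deposited normalized values or median ratio scaling. miR-320 was 25.8-fold lower in artery in IUGR piglets, on 1 read against 15. These ratios rearrange the same counts as the comparison of IUGR with normal. An interval in IUGR piglets wholly below that in normal piglets was found for 35.3% of 102 names, with 4 of 4 members. For 5.88% of the names it lay wholly above, and nothing is read from the count of the picked members.

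In normal piglets 1 of 7 members, miR-423-3p, was at least 2-fold lower in artery, and 12.9% of all names were lower and 25.2% higher. In IUGR piglets 4 of 4 members were, and 35.5% of 121 names were lower and 39.7% higher. These 4 reached the minimum of reads only through IUGR vein, so nothing is read from their count. In normal piglets 20 names were lower and 39 higher, which became 41 and 24, with 6 of 7 members lower, when predicted candidates stayed in the denominator.

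Rows of high GC content had low ratios of IUGR to normal also where they are no member. Several of these other rows are of miR-339, so they are not all separate miRNAs. In vein, the 26 other rows of at least 60% GC had a median log2 ratio of -1.17, and 53.8% of them were at least 2-fold lower, beside 24% of all 154 rows. The 53 rows of 40 to 50% GC had a median of 0.36, with 7.55% at least 2-fold lower. In artery the median was -2.72 over 10 other rows of at least 60% GC and 0.97 over 53 rows of 40 to 50%, with 39.4% of all 127 rows at least 2-fold lower. Between vessels, the other rows of at least 60% GC had a median log2 ratio of artery to vein of -0.17 over 27 rows in normal piglets and -2.21 over 9 rows in IUGR piglets, where 12.7% and 37.1% of all rows were at least 2-fold lower.

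Across rows, Spearman's rho between GC content and the log2 ratio of IUGR to normal was -0.50 in vein over 154 rows and -0.39 in artery over 127. With the member rows left out it was -0.44 and -0.32. Rows of 1 pair of libraries share those libraries and their depth, so these values are descriptions, and the part of base composition in the low ratios of the members was not tested.

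**Figure D4:**
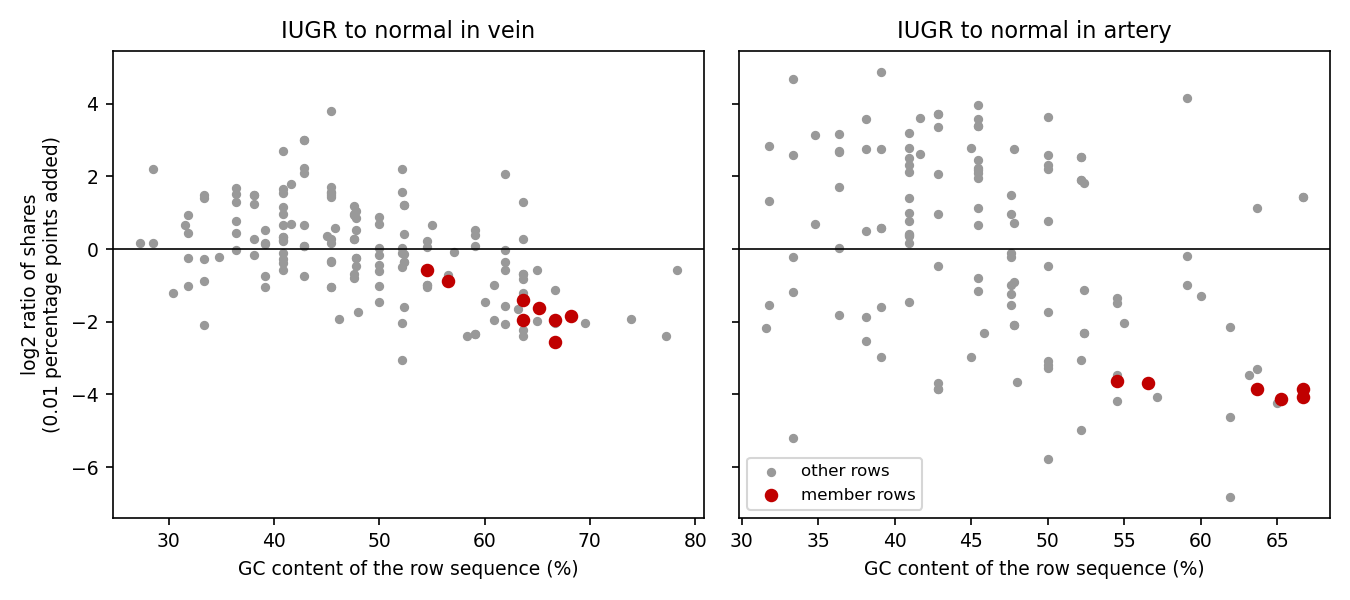
GC content of each row's sequence (%) against its log2 ratio of IUGR to normal shares, with 0.01 percentage points added, in vein (left) and artery (right). Member rows are marked apart from all other rows with at least 10 reads over both libraries, and rows of at least 60% GC that are no member had medians of -1.17 and -2.72.

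Summed over rows, reads of high GC content were scarcer in the IUGR libraries. Rows of at least 60% GC that are no member took 12% of reads in normal vein, 9.27% in normal artery, 5.90% in IUGR vein and 1.33% in IUGR artery. Among them miR-486, an erythroid and muscle miRNA, had 7.66, 4.54, 4.29 and 0.454% of reads. The main row of miR-339 had 1.58, 1.14, 0.369 and 0.0365%, and a row shorter by 1 base 0.849, 0.638, 0.209 and 0.0243%. In normal vein miR-486 and miR-339 thus held most reads of the sum, which is no measure of many separate miRNAs. miR-210, the hypoxia-induced miRNA, has 63.6% GC and went the other way, with 8, 9, 5 and 34 reads, or 0.0227, 0.120, 0.0697 and 0.276%.

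CCCT, which with GGAG is known as a motif of miRNAs sorted into exosomes of human T cells, was searched as these letters on the listed strand only, since miRNAs are single-stranded. It stood in 10 of the 14 member rows, 6 of them rows of miR-484 and the others those of miR-423-3p, miR-1306-5p, miR-328 and miR-1249. Among 544 other rows of 18 to 23 bases, 10.8% held CCCT and 7.35% held GGAG, which no member row did. In vein, 20 other rows with CCCT had a median log2 ratio of IUGR to normal of -0.78, and the other rows without it had one of 0.18. In artery the medians were -1.45 over 11 rows with it and 0.71 over 110 without. Rows with GGAG were lower still, with medians of -0.997 over 11 rows in vein and -3.47 over 5 rows in artery. CCCT itself raises GC content, and the part of either motif in these ratios was not tested.

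The summed members followed the order of some blood cell lists and not of others. Red cell miRNAs (miR-451, miR-144, miR-486, miR-16, miR-15a, miR-92a and miR-25) took 61.2, 53.8, 58.3 and 12.3% of reads in normal vein, normal artery, IUGR vein and IUGR artery. Most of this was miR-451, with 35.8, 32.0, 43.2 and 8.66%. The order of the red cell sum, and its small difference between the vein libraries, are thus no measure of its other names. For each 100 red cell reads there were 7.54, 4.36, 2.95 and 0.824 member reads, so the members were lower in the IUGR libraries by more than the red cell list was. Platelet and myeloid miRNAs (miR-223, miR-191, miR-21, miR-142, miR-23a and miR-24) took 7.36, 6.30, 5.13 and 2.19%, with 62.7, 37.2, 33.6 and 4.64 member reads for each 100. Lymphoid miRNAs (miR-150, miR-342 and miR-155) took 0.844, 0.465, 0.237 and 0.130%. For each 100 lymphoid reads there were 547, 504, 726 and 78.1 member reads, highest in IUGR vein, where the list itself held 17 reads.

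As sums, the platelet and myeloid list and the lymphoid list thus had the same order of libraries as the members. In normal vein miR-191 held 1150 of the 2598 platelet and myeloid reads. The median log2 ratio of artery to vein in normal piglets over that list's names was 0.31, so the order is not that of its names at large. The lymphoid interval of IUGR vein (0.138 to 0.379%) overlapped those of normal artery (0.324 to 0.646%) and IUGR artery (0.0742 to 0.211%). Endothelial miRNAs (miR-126, miR-221 and miR-222) took 0.895, 1.19, 1.98 and 4.67%, and liver miRNAs (miR-122, miR-192, miR-194 and miR-215) 0.207, 2.64, 2.65 and 32.8%, both highest in IUGR artery. Whether a changed mix of source cells has a part in the members' levels was not tested.

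**Figure D5:**
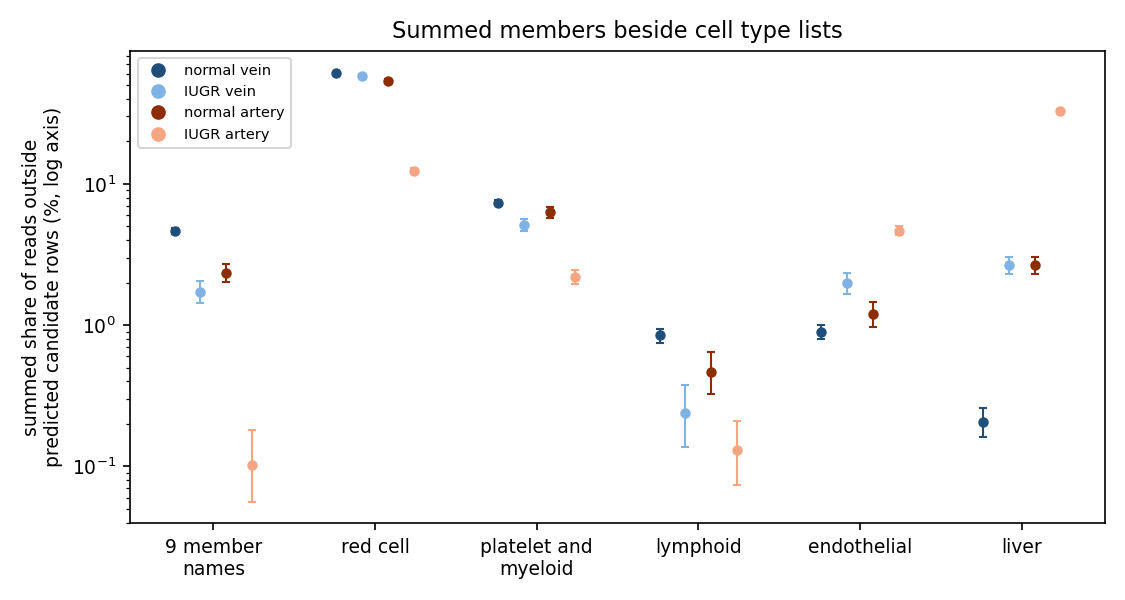
Summed share of reads outside predicted-candidate rows (%, log axis) for the member names and for 5 cell type lists in each library, with exact 95% binomial intervals. The members range from 4.61% in normal vein to 0.101% in IUGR artery, while the liver list ranges from 0.207% to 32.8% in the same libraries.

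By count, 4 of 11 red cell names with enough reads had at least 2-fold lower shares in the IUGR vein library and none higher ones, with a median log2 ratio of -0.83. In artery 7 of 9 were lower and 1 was higher, at a median of -2.53. Over all names the shares lower were 24.3% in vein and 37.9% in artery. Of platelet and myeloid names, 2 of 7 were lower in vein and none higher, at a median of -0.28. In artery 5 of 7 platelet and myeloid names were lower and 1 was higher, at a median of -1.80. The count in vein is near the share over all names. Lymphoid names were lower in 2 of 2 cases in vein and 1 of 2 in artery. In neither vessel was a liver or endothelial name at least 2-fold lower, and liver names were higher in 3 of 3 cases in vein and 6 of 6 in artery. The main rows of miR-192 and miR-215 have equal counts in every library, as have those of miR-194a and miR-194b. These liver names are thus not all separate cases.

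Of 8 other miRNA numbers made outside the usual Drosha and Dicer route, 2 were found, miR-451 and miR-664. miR-451, which is cut by an Argonaute protein in place of Dicer, took 35.8% of reads in normal vein, 32.0% in normal artery, 43.2% in IUGR vein and 8.66% in IUGR artery. Its log2 ratio of IUGR to normal was 0.27 in vein and -1.88 in artery with 0.01 percentage points added. On the same scale miR-484 had -1.76 and -4.31, and miR-320 had -0.57 and -3.62. miR-664 had 1 read under each of its names.

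Over the 4 libraries, the rows whose centred log2 shares lay nearest to those of the summed members were a miR-92a-3p row, miR-191, miR-339, miR-15b-3p and miR-486, of 134 candidate names. Their Euclidean distances were 0.72, 0.80, 0.86, 0.95 and 1.01. miR-191 had 1150, 83, 84 and 13 reads, and miR-339 had 556.5, 85.5, 26.5 and 4.5. The miR-92a-3p row had 72, 13, 7 and 0 reads, and miR-15b-3p had 159, 27, 7 and 0. For both, the value in IUGR artery is only the 0.01 percentage points added to each share. The main miR-92a row, with 2980, 482, 295 and 71 reads, was not among the nearest 5. GC content was 54.5, 50, 61.9, 33.3 and 63.6% in the order of the distances, so the nearest profiles were not limited to GC-rich rows. Among the members, miR-423-3p at 0.41 and miR-484 at 0.46 lay nearest to the sum, to which they gave 35.9% and 22.5% of the reads. miR-320b at 4.57 and miR-1306-3p at 3.23 lay farthest.

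The authors' deposited table for the vein marked 10 of 14 member rows as different between normal and IUGR, and the authors' deposited table for the artery marked 10 of 12, all of them higher in normal. Over all rows listed outside predicted candidates, 23.6% and 46.7% were marked as higher in normal. The authors' deposited table of normal vein against normal artery marked 7 of 14, and the authors' deposited table of IUGR vein against IUGR artery 6 of 9, all higher in vein, beside 16.1% and 21.1% of all such rows. For miR-423-3p the authors' deposited tables give 6.17-fold for normal to IUGR vein and 27.2-fold for normal to IUGR artery, on the authors' normalized values. Each mark sets 1 library against 1 other and has no replicate behind it.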

How the data were processed

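Exosomes were pelleted from cord blood plasma, and small RNA of pools of 3 piglets was sequenced from 1 end over 36 bases, per the labels' protocols. The submitters' processing notes name the build Sscrofa 10.2, and for aligner and counting nothing is given in the sources used here. Altogether 4 tables were deposited, each of which sets 2 libraries against each other. Their raw columns give estimated counts, as deposited, some of them fractions of a read. The normalized columns the authors deposited give a signal, the raw reads times 1 factor per library, from 1.90 to 5.89. The deposited log2 fold column is quoted only as the authors' value. A further 4 normalized columns repeat these libraries and were not used.

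Tables were joined by name and sequence, with 0 for a row that a table lacks, and the rows of a mature name were summed. Shares are percentages of reads outside predicted-candidate rows. Calls at 2-fold used shares plus 0.01 percentage points over names with at least 10 reads in the 2 libraries, and intervals of ratios are exact conditional binomial intervals (scipy 1.17.1). Vein and artery were compared with edgeR 4.0.16 (R 4.3.3, quasi-likelihood test, TMM, Benjamini-Hochberg adjustment over all rows with at least 20 reads, counts rounded to whole numbers), which was tested on simulated data. The simulation used a set spread between libraries and not one taken from these data, so it gives no power or error rate for them. DESeq2 1.42.0 was an alternative. Standard errors are the log2 difference over the root of the F statistic. The normal and the IUGR pool may supply both vessels, and deviations of libraries of 1 pool from their vessel means correlated at 0.54 over 163 rows. A difference between conditions that both vessels share gives such a correlation too, so it does not show whether the same piglets supplied both vessels. No source says that the libraries of a vessel are biological replicates, so p-values measure only the spread between these 4 libraries. Members and lists were chosen with earlier results of these data known. The miRNAs named are all members, the 5 nearest by profile, the lists, and, chosen after their values were seen, miR-210. The rows of miR-484 share most of their bases, so their split is uncertain.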

Additional observations from a re-analysis of the deposited data

How the results depend on the processing

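Over 9 other settings, 196 of 202 member ratios lay below 0, 183 lay inside the counting interval of the reported ratio, and none at least 2-fold apart changed sign. Of these, the 23 with no minimum of reads and the 18 with at least 30 could not move, since those settings only choose the names. Taking the most abundant row alone could move only miR-484, the only tested member name with several rows. All settings reuse the same counts, so these numbers add no further support. The 5 of 7 members at least 2-fold lower in IUGR vein stayed within 1.5 times in every setting, between 4 and 7. The 5 in artery became 8 of 9 with no minimum of reads and 3 of 3 with at least 30 reads. Between the vessels of normal piglets, 1 of 7 became 6 with all reads as denominator, 6 with the deposited normalized values and 6 with median ratio scaling. Between those of IUGR piglets, 4 of 4 became 7 of 8 with no minimum and 2 of 2 with at least 30 reads.

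Over all names in vein, 36 lower became 66 with all reads, 69 with normalized values, 53 with median ratio scaling, 16 with 0.05 percentage points added and 17 with at least 30 reads. With no minimum of reads, 47 lower in artery became 162, 20 between normal vessels became 31 and 43 between IUGR vessels became 133. With at least 30 reads these became 26, 10 and 24. The median of all names in vein moved from -0.02 to between -0.85 and 0.17 with the scaling, and in artery from 0.37 to between 0.19 and 0.84.

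The test of vein against artery called 0 rows, and 0 with the pool as a replicate block, where miR-423-3p had a log2 difference of -3.09 and an adjusted p of 0.384. The block changed no call. DESeq2 called 2. With each library left out in turn, 0 to 53 rows were called, the highest without normal artery, and the cause was not tested. The row of miR-484 of 21 bases then ranged from -4.60 to 0.12, the positive value without normal vein, and miR-1249 from -6.36 to 0.35, the positive value without IUGR artery. The Spearman values of GC content kept their sign and moved by less than 0.1. Each arm of miR-423 has a single row, so taking the most abundant row alone could not move the 5p shares. Depth limits the values of miR-320b, miR-1306-3p, miR-328 and miR-1249, each of which had at most 1 read in either IUGR library.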

Other observations

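miR-484 was read in 2 main lengths. The row of 22 bases held 38.5% of miR-484 reads in normal vein (interval 33.6 to 43.8%), 32.6% in normal artery (20 to 49.0%) and 48.8% in IUGR vein (28.2 to 71.8%), with overlapping intervals. The row of 21 bases, which lacks the last base, held most of the others, with 219, 27.5 and 11 reads in the same order. Of miR-1306 reads, the 3p arm made up 5.41% in normal vein (6 of 111, 2.01 to 11.4%) and 14.3% in normal artery (2 of 14, 1.78 to 42.8%).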
